A study of Mus musculus with 3 samples.

Results

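The S100 proteins and galectins described here are 10 mouse genes, S100a1, S100a4, S100a6, S100a8, S100a9, S100a10, S100a11, Lgals1, Lgals3 and Lgals9, chosen by name. A transcript was counted to a gene when its GENCODE M21 symbol was one of these names. Of the 10 genes, 8 had rows in the mRNA expression table, 5 S100 genes and 3 galectins, with 22 transcripts of the 56651 listed for 15861 genes. S100a8 and S100a9 had no rows and were not analysed here, so no level is given for either.

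S100 proteins are small EF-hand proteins. Most of them bind calcium, then expose a surface that holds partner proteins such as annexins, non-muscle myosin and the giant scaffold AHNAK, and several are also released and act on receptors such as RAGE. Galectins bind beta-galactoside sugars on glycoproteins and are built in different ways. Galectin-1 has a single sugar-binding domain and forms dimers, galectin-3 joins that domain to a flexible tail, and galectin-9 carries a pair of the domains on one chain with a linker between them. Macrophages are a well-known source of galectin-3, and S100A8 and S100A9 are abundant in neutrophils and monocytes.

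The study sequenced RNA of apoptotic bodies (ABs), the membrane-bound fragments of dying cells, from 3 cultures of C57BL/6 mouse bone marrow aged 11 weeks. Bone marrow macrophages (BMM), grown with M-CSF at 50 ng/mL for 72 h, gave BMM-ABs. Preosteoclasts (pOC) and mature osteoclasts (mOC) had in addition received RANKL, the cytokine that drives osteoclast formation, at 100 ng/mL with M-CSF at 30 ng/mL, for 24 h in pOC-ABs and 72 h or more in mOC-ABs. All 3 cultures were made apoptotic. The agent was alendronate at 500 µM for 12 h by the labels and staurosporine at 0.5 µM for 3 h by the study's methods. The doses and times of M-CSF and RANKL above are those of the labels. The methods give 96 h of RANKL for mOC, M-CSF at 50 ng/mL with RANKL, and a shorter time in M-CSF for BMM. By title the samples are cells, but the series' design and the methods describe ABs, and the groups are called ABs here. Each group was 1 library, so no p-value is given, and every 95% interval covers counting error only, not the spread between cultures. The comparisons were pOC-ABs against BMM-ABs (G1), mOC-ABs against BMM-ABs (G2) and mOC-ABs against pOC-ABs (G3), and each pair of comparisons shares a library.

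The mRNA table held 9100082 reads for BMM-ABs, 7387317 for pOC-ABs and 7705592 for mOC-ABs, and 3 values given together below keep that order of libraries. Levels below are reads of a gene, summed over its transcripts, per 1000000 reads of that table (rpm). Where genes are set against each other, FPKM is given, which also divides by transcript length. Reads of a transcript are those assigned to it by the authors' processing. Transcripts of a gene share sequence, and the intervals do not cover errors of that assignment. Summed osteoclast markers were 345, 581 and 1870 rpm, with 9 of 10 markers listed, Calcr without rows and Itgb3 at 6, 3 and 0 reads. Nfatc1 held 2566, 2772 and 8463 of their 3139, 4292 and 14413 reads, and Ctsk had 180, 171 and 1001. Summed macrophage markers were 5798, 2777 and 1799 rpm with all 8 listed, of which Mertk had 0, 2 and 5 reads. Lyz2 held 28844, 9854 and 3170 of their 52759, 20512 and 13864 reads. Cd68 differed little, 1.12-fold lower in pOC-ABs and 1.11-fold lower in mOC-ABs than in BMM-ABs. Csf1r had 9870, 2640 and 3902 reads and was 1.42-fold higher in mOC-ABs than in pOC-ABs. Of 15 neutrophil markers 3 had rows, with a sum of 51.8, 22.3 and 11.8 rpm, Csf3r having 370, 48 and 33 reads, Cebpe 96, 107 and 58 and Lcn2 5, 10 and 0, and Elane, Mpo, Ltf and Camp were among those without rows. The mesenchymal, B cell, T cell and erythroid lists summed to at most 6 reads in a library. Their part in the member levels was not tested. In such bulk libraries fewer bodies of a type and less RNA per body cannot be told apart.

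3 stretches of DNA go with the results that follow. The promoters are those of S100a4 and S100a11, the members past 2-fold in G1, and show the 250 bases before the RefSeq start on GRCm38.p6. Capitals mark matches to TATAAA in S100a4, at chr3:90603520-90603769 on the plus strand, and to TGANTCA and CACGTG in S100a11, at chr3:93520246-93520495 on the plus strand.
S100a4 promoter: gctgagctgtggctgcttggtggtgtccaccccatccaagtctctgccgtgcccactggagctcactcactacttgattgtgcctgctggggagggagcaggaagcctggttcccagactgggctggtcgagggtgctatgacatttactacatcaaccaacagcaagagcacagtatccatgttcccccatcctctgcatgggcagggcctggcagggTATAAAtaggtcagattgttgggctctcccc
S100a11 promoter: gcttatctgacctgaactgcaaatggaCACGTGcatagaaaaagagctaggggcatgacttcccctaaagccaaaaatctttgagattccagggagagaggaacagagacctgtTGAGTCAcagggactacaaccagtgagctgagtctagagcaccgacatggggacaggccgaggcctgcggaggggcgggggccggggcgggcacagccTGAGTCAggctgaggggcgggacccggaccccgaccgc
The remaining stretch is the exon that sets the main Lgals9 transcripts apart, at chr11:78969714-78969806 on the minus strand of GRCm38. Exon 5 of the 11 exons of Lgals9-203 is in capitals, with 15 bases of the neighbouring exons in lower case, and Lgals9-202 joins those neighbours directly.
Lgals9-203: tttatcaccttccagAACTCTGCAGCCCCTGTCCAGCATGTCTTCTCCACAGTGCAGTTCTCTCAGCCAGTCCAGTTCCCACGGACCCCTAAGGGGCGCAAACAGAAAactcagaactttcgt
Lgals9-202: tttatcaccttccagactcagaactttcgt

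Together the 8 members made up 0.260%, 0.415% and 0.321% of all reads in the mRNA table. The S100 genes took 0.117%, 0.210% and 0.188%, and the galectins 0.143%, 0.205% and 0.132%. Both families thus had their highest share in pOC-ABs, while mOC-ABs stayed above BMM-ABs for the S100 genes and below them for the galectins. Per length, S100a4 was the highest member in every library, at 1115, 2416 and 2023 FPKM, which placed it 31st, 7th and 14th among 12408 protein-coding genes. Lgals3 was the second member throughout, at 823, 1154 and 790 FPKM. Below these, the order differed between libraries. In BMM-ABs it ran Lgals1 (445 FPKM), S100a6 (403), S100a10 (281), S100a11 (137) and S100a1 (119). In mOC-ABs S100a10 (688 FPKM) stood above Lgals1 (399), S100a6 (306), S100a11 (231) and S100a1 (126). Lgals9 was far below the rest, at 16.1, 17.6 and 5.46 FPKM. With 1 library a group, no spread between samples is known against which neighbours in this order could be set apart.

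**Figure D1:**
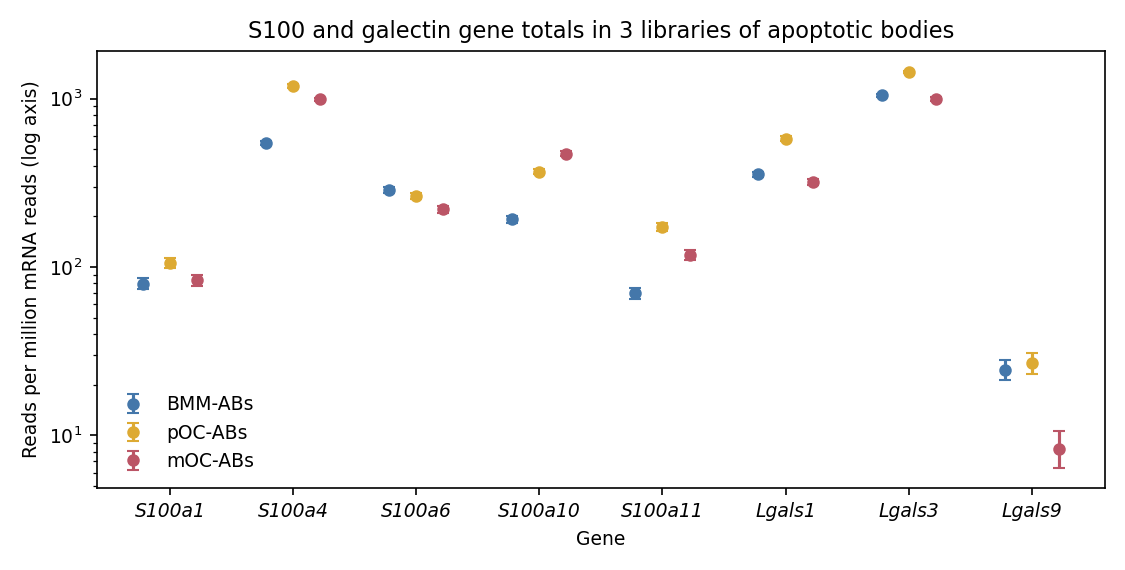
Level in rpm (log axis) for each of the 8 members, 1 point per library, with bars for the exact 95% Poisson interval. S100a4 and Lgals3 lie highest in all 3 libraries, S100a10 climbs through 192, 368 and 471 rpm, and Lgals9 lies lowest, at 24.5, 26.8 and 8.31 rpm.

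S100a4, which binds non-muscle myosin and is known for its role in cell motility, had 4955, 8791 and 7623 reads, or 545, 1190 and 989 rpm. Both RANKL-treated libraries lay above BMM-ABs. In G1 the level was 2.19-fold higher (95% interval 2.11 to 2.26) and in G2 1.82-fold higher (1.75 to 1.88), while mOC-ABs were 1.20-fold below pOC-ABs in G3. The G1 ratio passed the 2-fold limit of the study on mRNA-table reads, but was 0.93 on the log2 scale, under that limit, when scaled to the mRNA and lncRNA tables together. S100a4-201 led throughout, and S100a4-202 carried 4.02%, 2.32% and 3.79% of the reads. A protein-coding gene that overlaps it on the same strand, Gm42674, held 47.4% of the 50-base words of S100a4, yet had 0, 4 and 11 reads. Myh9, the heavy chain of the myosin that S100A4 binds, had 9448, 6301 and 7853 reads, 1.22-fold lower in G1 and 1.02-fold lower in G2.

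S100a10 encodes an S100 protein that does not need calcium and pairs with annexin A2 at the membrane, where the complex is known to hold plasminogen and AHNAK. It had 1751, 2721 and 3628 reads, or 192, 368 and 471 rpm. Among the 8 members S100a10 was the single one with its highest level in mOC-ABs. The ratio was 1.91 (1.80 to 2.03) in G1 and 2.45 (2.31 to 2.59) in G2, and mOC-ABs were 1.28-fold above pOC-ABs (1.22 to 1.34) in G3. S100a10-201 carried 99.1% to 99.7% of the reads. Anxa2 ran the other way, with 5988, 4031 and 3296 reads, 1.21-fold lower in G1 and 1.54-fold lower in G2. Ahnak had 68509, 25416 and 28746 reads and was 2.19-fold lower in G1 and 2.02-fold lower in G2.

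S100a11, a partner of annexin A1 and annexin A6 with a known part in membrane repair, lies 28792 bases from S100a10 on chromosome 3. Its only listed transcript had 636, 1273 and 910 reads, or 69.9, 172 and 118 rpm, with pOC-ABs highest. The ratio was 2.47 (2.24 to 2.72) in G1 and 1.69 (1.53 to 1.87) in G2, and the level was 1.46-fold lower in G3. Of its 50-base words, 41.1% also occur in other genes, among them the processed pseudogenes Gm12854, with 131, 258 and 252 reads, and Gm7665, with 337, 629 and 554 reads in the lncRNA table. How reads of such shared sequence were divided is not given in the sources used here. Summed over S100a11 and both pseudogenes, a choice made after seeing the data, the reads were 1104, 2160 and 1716. That sum was 2.41-fold higher in G1 and 1.84-fold higher in G2, and its G3 ratio was 0.76, against 0.69 for S100a11 alone. Anxa1 had 1063, 1449 and 1016 reads, 1.68-fold higher in G1 and 1.13-fold higher in G2. Anxa6 had 1029, 529 and 427 reads, 1.58-fold lower in G1 and 2.04-fold lower in G2.

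S100a6, or calcyclin, which binds annexin A11 among other partners, lies 6836 bases from S100a4 and was the S100 gene with lower levels after RANKL. Its 2607, 1955 and 1704 reads gave 286, 265 and 221 rpm, 1.08-fold lower in G1 (1.02 to 1.15) and 1.30-fold lower in G2 (1.22 to 1.38). Anxa11 had 293, 326 and 306 reads, 1.37-fold higher in G1 and 1.23-fold higher in G2. The main transcript, S100a6-201, carried 96.4%, 85.5% and 98.6% of the reads. The difference in pOC-ABs lay mostly in S100a6-204, annotated as a target of nonsense-mediated decay, which had 4, 198 and 0 reads. It made up 10.1% of the S100a6 reads in pOC-ABs (8.83% to 11.6%). In rpm it was 61.0-fold higher in pOC-ABs than in BMM-ABs, where it had just 4 reads. The log2 ratio was 5.93 with a wide interval (4.55 to 7.82). With the 0 reads of mOC-ABs set at 3 reads, mOC-ABs were 68.8-fold lower than pOC-ABs. The exact interval of that G3 ratio reached up to -5.79 on the log2 scale, a smaller difference. S100a6-201, S100a6-203 and S100a6-204 share the same coding exons of 267 bases. Transcripts annotated as protein-coding leave out S100a6-204 and also S100a6-202, a retained-intron transcript with 33, 62 and 11 reads. On the protein-coding transcripts alone, the log2 ratio of S100a6 was -0.30 in G1 (from -0.11). In G3 it was -0.06 (from -0.26). For S100a6-201 by itself the G3 log2 ratio was -0.05 (-0.15 to 0.04), so pOC-ABs and mOC-ABs were not set apart on that transcript.

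S100a1, best known from muscle, where it binds calcium channels of the sarcoplasmic reticulum, had 723, 783 and 643 reads, or 79.4, 106 and 83.4 rpm. It was 1.33-fold higher in G1 (1.20 to 1.48), while the G2 ratio of 1.05 had an interval from 0.943 to 1.17 and so was not set apart from no difference at this depth. S100a1-201 led in every library, and S100a1-202 held 7.61%, 7.54% and 11.7% of the reads.

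Lgals1, encoding galectin-1, had 3239, 4279 and 2462 reads, or 356, 579 and 320 rpm, all on Lgals1-201. pOC-ABs stood above both other libraries. The ratio in G1 was 1.63 (1.55 to 1.70), the level in G2 was 1.11-fold lower (1.06 to 1.17), and in G3 it was 1.81-fold lower (1.72 to 1.91). Galectin-1 is known to bind CD45, the product of Ptprc, which had 1732, 792 and 671 reads and was 1.78-fold lower in G1 and 2.19-fold lower in G2.

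Lgals3, encoding galectin-3, had the most reads of all members, 9556, 10645 and 7682, or 1050, 1441 and 997 rpm. It was 1.37-fold higher in G1 (1.33 to 1.41), 1.05-fold lower in G2 (1.02 to 1.09) and 1.45-fold lower in G3 (1.40 to 1.49). BMM-ABs and mOC-ABs thus differed little, with pOC-ABs above both. The reads were spread over 6 transcripts, led by Lgals3-201 with 4737, 4611 and 3814 reads and followed by Lgals3-204 with 3885, 3710 and 3256. Lgals3-203 had 571, 2034 and 190 reads. Its share of the Lgals3 reads was 5.98%, 19.1% and 2.47%, highest in pOC-ABs. In rpm it was 4.39-fold higher in G1 and 11.2-fold lower in G3, a wider range than the gene total. Lgals3-201, Lgals3-203 and Lgals3-204 share the same coding exons of 792 bases. Lgals3bp, a secreted glycoprotein that galectin-3 binds, had 1150, 363 and 322 reads, 2.57-fold lower in G1 and 3.02-fold lower in G2. Trem2, a myeloid receptor for which galectin-3 is a described ligand, had 2823, 1116 and 1090 reads, 2.05-fold lower in G1 and 2.19-fold lower in G2.

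Lgals9, encoding galectin-9, was the least abundant member and the one whose ratio lay furthest from 1 in G2 and in G3. It had 223, 198 and 64 reads, or 24.5, 26.8 and 8.31 rpm, so BMM-ABs and pOC-ABs were close while mOC-ABs were low. The G1 ratio of 1.09 had an interval from 0.899 to 1.33. In G2 the level was 2.95-fold lower (2.23 to 3.96) and in G3 3.23-fold lower (2.42 to 4.35). Havcr2, which encodes the galectin-9 receptor TIM-3, had 205, 146 and 186 reads, 1.14-fold lower in G1 and 1.07-fold higher in G2. Cd44, another described galectin-9 ligand, had 2009, 998 and 717 reads, 1.63-fold lower in G1 and 2.37-fold lower in G2.

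Beneath the close totals of BMM-ABs and pOC-ABs, the Lgals9 reads were assigned to different transcripts. Lgals9-202, without the exon printed above, had 81, 195 and 64 reads, which were 36.3% (30.0% to 43.0%), 98.5% and 100% of the gene. Lgals9-203, with that exon, had 137, 3 and 0 reads, or 61.4% (54.7% to 67.9%) of the gene in BMM-ABs and 1.52% in pOC-ABs. The 0 of 64 reads in mOC-ABs allow a share of up to 4.69% by the limit of 3 reads and up to 5.60% by the exact interval. On the rpm scale, the log2 ratio of Lgals9-203 was -5.21 (-7.51 to -3.63) in G1. With the 0 reads of mOC-ABs set at the floor of 3 reads, mOC-ABs were 38.7-fold lower than BMM-ABs. The exact interval of that G2 ratio reached up to -4.96 on the log2 scale, a smaller difference. Lgals9-202 was 2.97-fold higher in G1 and 3.18-fold lower in G3. The exon is 93 bases long, 31 codons, and is the whole difference between the coding lengths of 1059 and 966 bases, and it lies between the parts that encode the sugar-binding domains. Lgals9 was the 1 member of 6 with 2 or more transcripts whose leading transcript differed between libraries, by reads and by FPKM. Such a switch is common in these tables: it occurred in 24.5% of 6875 genes with at least 100 reads in every library, a set that Lgals9 does not enter because of its 64 reads in mOC-ABs.

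**Figure D2:**
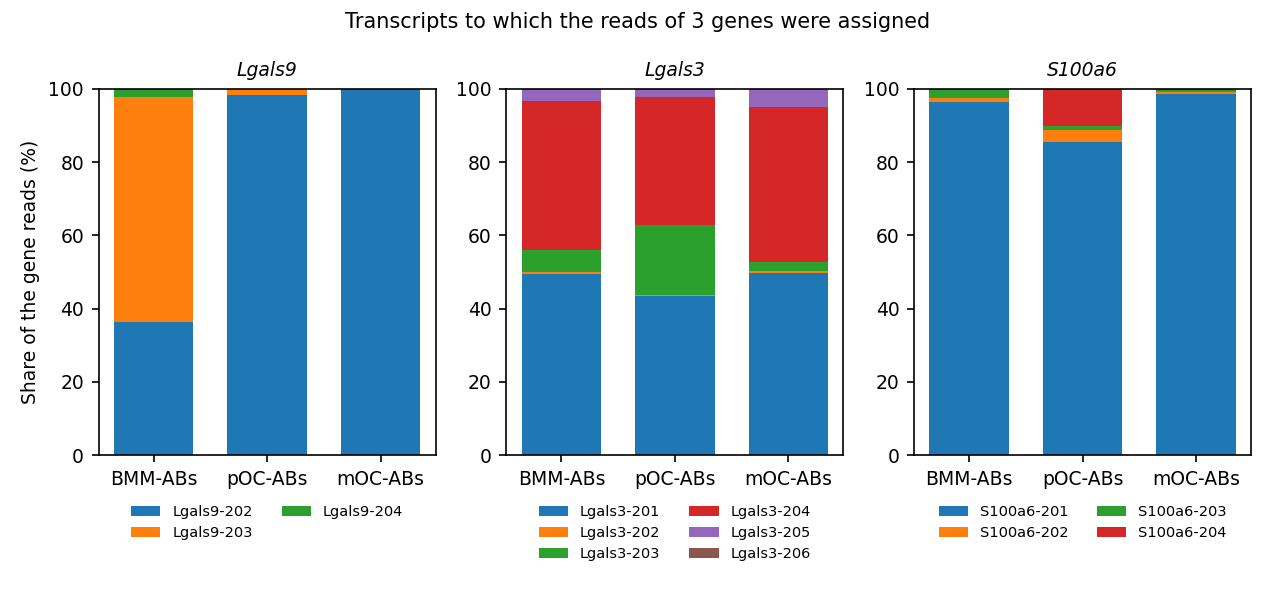
Share of the reads of Lgals9, Lgals3 and S100a6 (percent, 0 to 100) on each of their listed transcripts, 1 stacked bar per library for each gene. Lgals9-203 fills 61.4% of the Lgals9 bar in BMM-ABs and 1.52% in pOC-ABs, and S100a6-204 and Lgals3-203 are widest in pOC-ABs, at 10.1% and 19.1%.

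Set against all 12713 genes with at least 20 reads over the 3 libraries, the members were placed as follows. In G1, 2 of 8 members (S100a4 and S100a11) were more than 2-fold higher and 0 more than 2-fold lower, where 4.87% of all genes were higher and 6.06% lower. In G2, 1 member (S100a10) was more than 2-fold higher and 1 (Lgals9) lower, against 4.15% and 9.01% of all genes. In G3, 0 were higher and 1 (Lgals9) was lower, against 3.5% and 6.86%. With a limit of 1.5-fold, 4 members (S100a4, S100a10, S100a11 and Lgals1) were higher and 0 lower in G1, beside 13.9% and 15.7% of all genes. At that limit 3 (S100a4, S100a10 and S100a11) were higher and 1 (Lgals9) lower in G2, beside 10.3% and 19.5%, and 0 were higher and 2 (Lgals1 and Lgals9) lower in G3, beside 8.74% and 15.3%. From G1 to G3, the members had median log2 ratios of 0.58, -0.00 and -0.44, and all genes of -0.02, -0.05 and -0.05. Ratios lay above 1 for 7 of 8 members in G1, 4 in G2 and 1 in G3, beside 48.4%, 45.4% and 45.5% of all genes, though Lgals9 in G1 and S100a1 in G2 lay below 1 when scaled to the mRNA and lncRNA tables together. S100a6 was the exception in G1 and S100a10 the exception in G3. The 95% counting interval left out a ratio of 1 for 7 members in G1, 7 in G2 and 8 in G3, which says nothing of differences between cultures. No such count was made over all genes, so these counts do not set the members apart. With many reads the interval leaves out 1 even for a small difference, such as 1.05-fold lower for Lgals3 in G2.

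**Figure D3:**
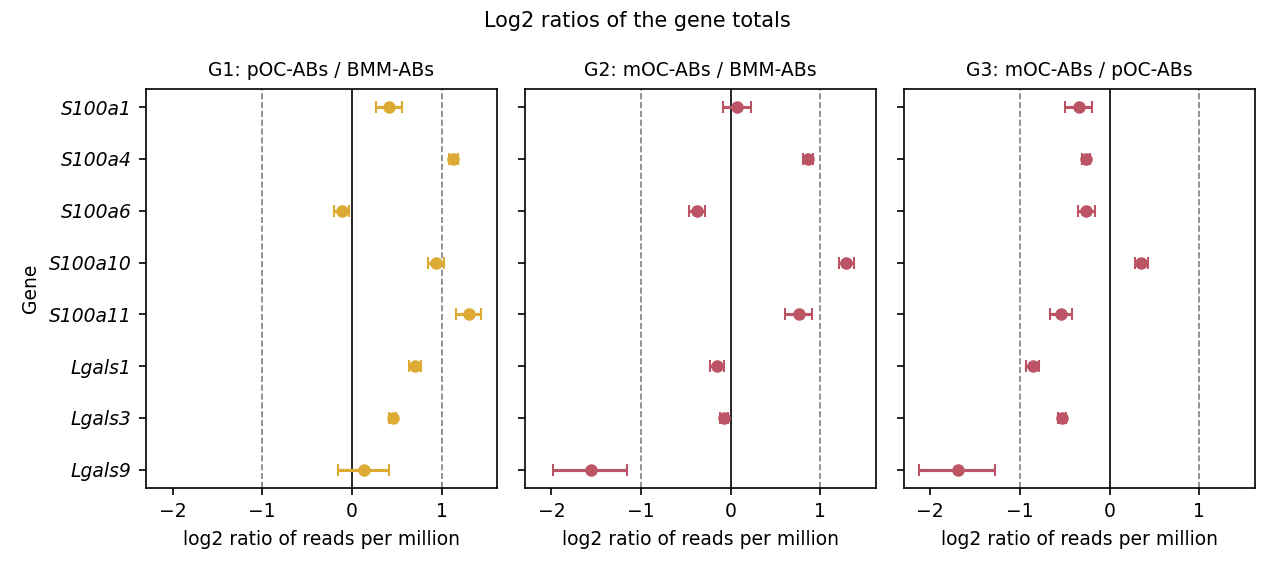
Log2 ratio of rpm for each member in G1, G2 and G3, with exact 95% counting intervals and lines at no difference and at 2-fold. S100a4 and S100a11 lie past the upper line in G1, S100a10 in G2, and Lgals9 past the lower line in G2 and G3.

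**Figure D4:**
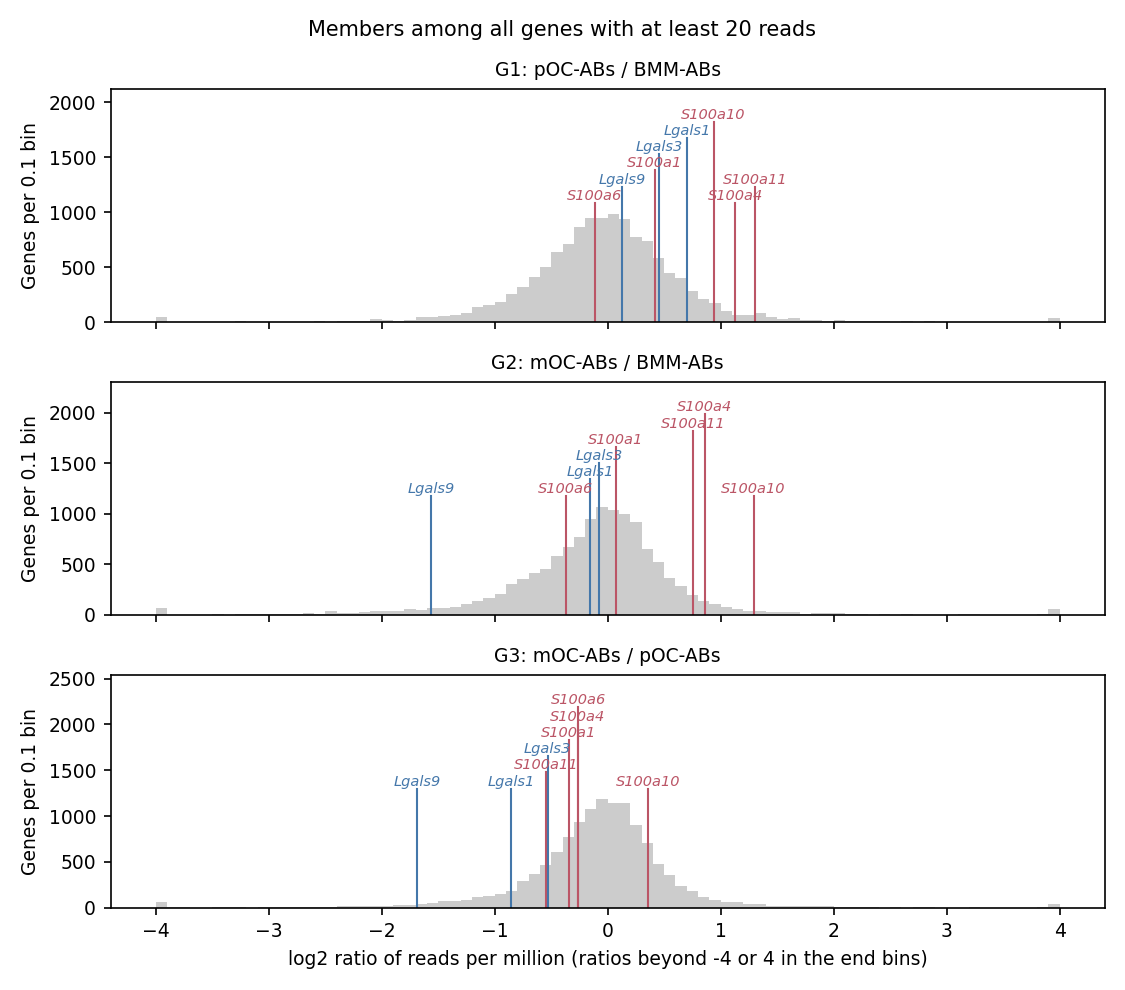
Histogram of log2 ratios of the 12713 genes with at least 20 reads, without the 4 to 10 genes at 0 in both libraries, in bins of 0.1 for each comparison, with a labelled line per member. Most members lie right of the centre in G1 (median 0.58 against -0.02 for all genes) and left of it in G3 (-0.44 against -0.05).

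At the level of transcripts, 19 of the members' 22 had at least 20 reads. In G1, 6 of the 19 were more than 2-fold higher and 2 lower, or 31.6% and 10.5%, where 14.5% and 21.8% of all transcripts were. In G2, 1 was higher and 5 lower, against 13% and 25.1%. In G3, 0 were higher and 5 lower, against 15.3% and 20.5%. The share of lower transcripts in G2 and G3, 26.3%, was thus near that of all transcripts. Each count of 5 includes a transcript with almost no reads in the 2 libraries compared. These were S100a6-204 in G2, with 4 and 0 reads, and Lgals9-203 in G3, with 3 and 0. Their exact intervals reached up to 0.84 and 1.21 on the log2 scale, so neither was set apart from no difference. Calls over all transcripts were made in the same way.

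Of a list of 11 further genes, other S100 genes and S100pbp, 3 had rows. S100a13, which is known to take part in the export of FGF1, was the one of them past 2-fold in any comparison. It had 89, 184 and 104 reads and was 2.55-fold higher in G1, where 4.87% of all genes were, with the same order of libraries as S100a11. S100a3 had 16, 11 and 20 reads. S100pbp, which encodes an S100P-binding protein, had 409, 247 and 242. Of 7 other galectin genes 4 had rows and 2 at least 20 reads. Lgals8, a galectin with paired domains like galectin-9, had 760, 616 and 761 reads, and the galectin-related Lgalsl had 106, 145 and 141, and neither was past 2-fold in G1, G2 or G3.

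The list of S100 and galectin partners and receptors had 21 of 22 genes with rows, Cd69 being the one without. In G1, 0 were more than 2-fold higher and 4 lower (Ager, Ahnak, Lgals3bp and Trem2), beside 4.87% and 6.06% of all genes. In G2, 0 were higher and 7 lower, with Anxa6, Cd44 and Ptprc in addition to those 4, beside 4.15% and 9.01% of all genes. In G3, 0 were higher and 1 lower, beside 3.5% and 6.86% of all genes. The 1 was Cd36, a scavenger receptor with 156, 161 and 69 reads. Ager, which encodes the S100 receptor RAGE, had just 21, 5 and 6 reads. The median log2 ratio of the list was -0.56, -0.52 and -0.12 in G1, G2 and G3. The members' medians were 0.58, -0.00 and -0.44, on the other side of 0 in G1, near 0 in G2 and on the same side in G3.

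The genes whose ratios in G1 and G2 lay nearest to those of a member were sought among 7246 or 7247 protein-coding genes with at least 500 reads in all, by the distance on the log2 scale over 3 libraries. For S100a4 they were Armt1 (0.026), Uqcr11 (0.036) and Lims1 (0.0996). For Lgals3 they were Rngtt (0.0025), Nufip1 (0.0042) and Rab11fip1 (0.015), but 61 genes lay within 0.1. For Lgals9 they were Egr1 (0.147), Pck2 (0.221) and Pid1 (0.245), and 0 genes lay within 0.1.

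In the promoter windows, 5 short motifs were searched on both strands, chosen with the values known. The TATA box, searched as TATAAA, was held by S100a4 31 bases before its start and by 12.4% of all 32851 windows of this length. The AP-1 motif was searched as TGANTCA, and S100a11 held it 136 and 38 bases before its start. It occurs in 6.75% of the windows, and 2 or more times in 0.338%. An E-box, searched as CACGTG, lay 223 bases before the start of S100a11 and in 6.02% of the windows. The PU.1 core, searched as GAGGAA, was held once by S100a11, 153 bases before its start, by Lgals9 at 2 places, and by 23.3% of the windows. The NFAT core, searched as GGAAA, overlaps the PU.1 core where a further A follows, and was held by S100a1 at 2 places, by Lgals9 at 1 and by 55.6% of the windows. A share for 2 or more places was worked out for the AP-1 motif alone, not for the PU.1 core or the NFAT core. S100a6 and Lgals3 held none of the 5 in these windows. Entries matched 6 of the 8 members, all but Lgals1 and S100a10.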

How the data were processed

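Poly-T selected RNA of 3 AB libraries was sequenced in pairs by the authors, whose processing notes name FastQC, HISAT2, StringTie and GRCm38, without versions. The counting tool, read length and strand are not given in the sources used here. The deposited mRNA table holds whole-number read counts and FPKM per transcript. For the 22 member transcripts, the deposited FPKM equalled reads per length and per mRNA-table total to within 0.0151%. The lncRNA table was used for its counts and the circRNA table held no junction of a member.

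Transcripts were matched to GENCODE M21 by identifier, and 211 had no gene there. Counts were summed per gene and scaled to the mRNA total. Levels carry exact Poisson intervals, shares Clopper-Pearson intervals and ratios the conditional binomial interval, all at 95% and for counting error alone. 3 reads equal 0.330, 0.406 and 0.389 rpm. The 2-fold limit is that of the study, whose FDR was not used as each group has 1 library. A gene entered the background with at least 20 reads over the 3 libraries.

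The named genes are all members, their leading transcripts and those with at least 10% of a gene's reads, listed family genes with at least 20 reads, and listed partners past 2-fold or bound directly by a member. Members, lists and tests were chosen with earlier results of these data known. 50-base words came from annotated transcripts. Promoters are RefSeq's. Alternatives were other scalings, FPKM, coding transcripts, added overlapping reads, a fold limit of 1.5 and no filter. The scripts were tested on simulated data and used Python 3.11.15, numpy 2.4.6, pandas 2.3.3, scipy 1.17.1 and matplotlib 3.10.9.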

Additional observations from a re-analysis of the deposited data

Results flagged for a closer look

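The lncRNA table, from which the main ratios of the members take no reads, listed reads for 2 non-coding transcripts that overlap members. NONMMUT044092.2 at S100a10 had 86, 66 and 63 reads, 215 in all, in the order of libraries used above. NONMMUT024166.2 at Lgals1 had 29, 22 and 10, 61 in all. Their strand is not given in that table and it is not stated that counting used strand, so these reads cannot be told apart from reads of S100a10 and Lgals1. They were picked out because they were above the limit of 3 reads.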

How the results depend on the processing

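Of 168 member ratios recomputed under other settings, 166 kept their sign. The other 2, both with the total of the mRNA and lncRNA tables, were Lgals9 in G1 (log2 -0.07, from 0.13) and S100a1 in G2 (-0.03, from 0.07). That total moved the median of all genes by -0.20, -0.10 and 0.10 from G1 to G3, the median of the members to 0.38 in G1 (from 0.58) and -0.10 in G2 (from -0.00), the members more than 2-fold higher in G1 to 1 (from 2, without S100a4), and the genes more than 2-fold lower in G1 to 1207 (from 771). The share of G1 calls that were higher went from 44.5% to 26.9%. With a fold limit of 1.5, 4 members were higher in G1 and 3 in G2, and 2 were lower in G3, beside 13.9%, 10.3% and 15.3% of all genes. With no filter on low reads the genes higher and lower were 1395 and 1646 in G1 (from 619 and 771), 1219 and 2169 in G2 (from 528 and 1145), and 1103 and 1916 in G3 (from 445 and 872), more genes being tested. Adding reads of genes that share 50-base words was chosen after seeing the data and left the counts of members past 2-fold as they were. It moved the log2 ratio of S100a11 in G3 to -0.39 (from -0.55) and the median of the members in G3 to -0.37 (from -0.44). No paired analysis was possible because each group has 1 library, and for that reason none could be left out. Depth limits Lgals9 most, with 64 reads in mOC-ABs.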
